A study of Mus musculus with 24 samples.

Results

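Megakaryocyte and platelet genes were followed in blood-forming cells of wild-type mice and of mice that lack BAP1, an enzyme of the nucleus that takes ubiquitin off histone H2A. A list of 36 genes that encode platelet receptors, granule proteins, signalling proteins and megakaryocyte transcription factors was matched to the array's gene symbols. The rule takes the genes by name, and a measured value enters only in the choice among several probes of a gene. The list was drawn up with earlier results of these data known, so its counts are a description. Of the 36 genes, 35 had a probe, out of 17741 genes named on the array. P2ry1 was not matched and is not analysed here. Where a gene had more than 1 probe, its values are those of the probe brightest on average over the 24 arrays. The mice were of the strain C57BL/6 and, per the labels' protocols, had received tamoxifen, which deletes Bap1 throughout the body. The labels name no Cre line, dose, time after tamoxifen, age or sex, and do not say whether wild-type mice carried the Cre. LSK cells, bone marrow cells sorted as negative for lineage markers and positive for both Sca1 and Kit, and so enriched for stem cells, came from wild-type (WT) mice 1 and 3 and from knockout (KO) mice 2 and 4. Myeloid progenitors, sorted as Kit-positive but negative for Sca1 and lineage markers, came from WT mice 5 and 6 and KO mice 7 and 8. Each mouse gave 3 arrays, which were averaged, so that every group had n = 2 mice and no mouse gave both populations.

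Megakaryocytes are the large bone marrow cells that shed platelets. They arise from progenitors shared with red cells and also by a shorter route from platelet-primed stem cells, which already express genes such as Vwf, Selp, Pf4 and Itga2b. Platelets bind von Willebrand factor on damaged vessels through the GPIb-IX-V complex, bind collagen and fibrinogen through glycoprotein VI and integrins, and answer thrombin, nucleotides and thromboxane by releasing alpha and dense granules. Several of the proteins, von Willebrand factor, P-selectin and multimerin among them, are also made by endothelial cells, and coagulation factor XIII A by monocytes.

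The promoters below belong to members on which the results turn: Slc35d3 and Mmrn1 fell most in KO LSK cells, Selp rose in KO myeloid progenitors, and Gp5 and Pf4 changed in both populations. Each window runs from 250 bases before to 50 after the annotated start of transcription, from RefSeq on GRCm38.p6, printed 5′ to 3′ on the gene's strand. They lie at chr10:19851410-19851709 (Slc35d3, minus strand), chr6:60944067-60944366 (Mmrn1, plus), chr1:164115014-164115313 (Selp, plus), chr16:30310732-30311031 (Gp5, minus) and chr5:90772185-90772484 (Pf4, plus). Capitals mark matches, on either strand, to AGATAA or TGATAA (bound by GATA factors), GGAAGT (ETS factors), TGTGGT (RUNX factors) and TGANTCA (NF-E2 and AP-1 factors).
Slc35d3: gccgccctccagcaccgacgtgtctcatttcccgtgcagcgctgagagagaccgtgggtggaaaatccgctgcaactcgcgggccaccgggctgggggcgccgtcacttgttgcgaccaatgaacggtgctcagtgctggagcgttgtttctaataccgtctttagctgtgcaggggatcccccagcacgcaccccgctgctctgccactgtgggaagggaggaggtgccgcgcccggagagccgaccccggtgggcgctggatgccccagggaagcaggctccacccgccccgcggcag
Mmrn1: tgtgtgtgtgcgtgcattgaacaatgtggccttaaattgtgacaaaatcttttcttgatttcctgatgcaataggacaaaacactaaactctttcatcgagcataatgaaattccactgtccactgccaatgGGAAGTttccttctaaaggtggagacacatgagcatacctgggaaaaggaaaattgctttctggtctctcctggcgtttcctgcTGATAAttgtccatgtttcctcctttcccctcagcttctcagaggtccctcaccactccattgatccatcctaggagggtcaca
Selp: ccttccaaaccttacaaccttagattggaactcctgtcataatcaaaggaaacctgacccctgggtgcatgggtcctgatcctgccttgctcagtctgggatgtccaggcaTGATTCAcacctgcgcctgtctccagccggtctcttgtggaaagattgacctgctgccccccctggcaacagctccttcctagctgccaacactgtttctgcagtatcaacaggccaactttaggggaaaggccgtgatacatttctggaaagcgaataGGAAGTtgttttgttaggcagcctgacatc
Gp5: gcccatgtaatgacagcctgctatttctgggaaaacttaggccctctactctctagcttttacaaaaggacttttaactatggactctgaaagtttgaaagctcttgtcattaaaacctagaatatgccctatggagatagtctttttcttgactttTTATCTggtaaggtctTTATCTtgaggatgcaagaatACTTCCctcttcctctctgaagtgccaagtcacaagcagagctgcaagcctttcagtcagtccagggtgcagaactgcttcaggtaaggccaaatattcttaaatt
Pf4: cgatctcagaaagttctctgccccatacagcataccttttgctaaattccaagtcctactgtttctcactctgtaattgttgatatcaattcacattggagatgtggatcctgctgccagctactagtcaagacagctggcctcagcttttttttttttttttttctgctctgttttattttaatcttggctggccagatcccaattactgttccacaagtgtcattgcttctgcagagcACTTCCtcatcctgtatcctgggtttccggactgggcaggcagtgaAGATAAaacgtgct

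The window of Gp5 held 2 GATA matches and 1 ETS match, those of Mmrn1 and Pf4 1 of each, that of Selp 1 ETS and 1 NF-E2 match, and that of Slc35d3 held none of these letters. Windows were found for 29 of the 35 members, 31 windows in all because 2 members had more than 1. Of the 31, 9 held a GATA match (29.0%, against 18.6% of all 32851 promoter windows of the same length) and 12 an ETS match (38.7%, against 23.8%). A RUNX match was in 4 (12.9%, against 16.8%) and an NF-E2 match in 5 (16.1%, against 7.81%). A match describes the letters in the window and not a bound site.

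Bap1 itself read 11.55 and 11.45 in the WT and 11.96 and 11.84 in the KO LSK mice, and 11.54 and 11.59 against 11.67 and 11.85 in myeloid progenitors, all as log2 expression values. The target probe was therefore not lower in KO mice (0.40 ± 0.18, limma adjusted p = 0.321, and 0.20 ± 0.18, adjusted p = 0.843). No source used here places the probe relative to the deleted part, so it does not check the deletion, and WT and KO stand for the labels. The Y-linked gene Kdm5d read 7.88 in mouse 1 and 8.15 in mouse 5, both WT, and 5.93 to 6.02 in the other mice. Each WT group thus held 1 mouse with a high Y-linked reading, and no KO mouse had one. Sex, as far as this gene shows it, was not balanced between the genotypes in either population. Its part in the genotype changes cannot be told apart from that of the deletion. Calls that were lost without mice 1 and 5 are given beside the counts of members. Of the stem cell markers 14 of 16 had a probe, and their mean level was 10.42 to 10.95 in the LSK mice and 8.51 to 8.83 in the myeloid progenitor mice. The 11 measured of 12 granulocyte and monocyte progenitor markers lay the other way, at 10.71 to 11.62 and 12.40 to 12.74. Sca1 (Ly6a), which defines the sort, had no matched probe.

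The members covered a wide part of the range of the arrays, whose values run from 5.66 to 15.93 with a median probe mean of 7.2. In 19 members every mouse lay above that median. The brightest were Nfe2, a transcription factor needed for platelet release (12.47 to 13.63 over the 8 mice), Fermt3, the kindlin that activates integrins (12.59 to 13.21), and the thrombin receptor gene F2r (12.04 to 13.07). In 6 members no mouse reached 7. Among these were genes that mark the lineage: Itga2b, the CD41 integrin chain, read 5.91 to 6.29 and the platelet tubulin Tubb1 5.90 to 6.04. The chemokine precursor Ppbp read 6.31 to 6.68, the collagen receptor gene Gp6 6.25 to 6.59, the podoplanin receptor gene Clec1b 6.16 to 6.81 and the adhesion receptor gene Cd226 6.21 to 6.51. The changes of these 6 genes were -0.41 to 0.08 over both populations. No measure of background per probe was used, and a probe near the low end of the arrays has little room to show a decrease.

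**Figure D1:**
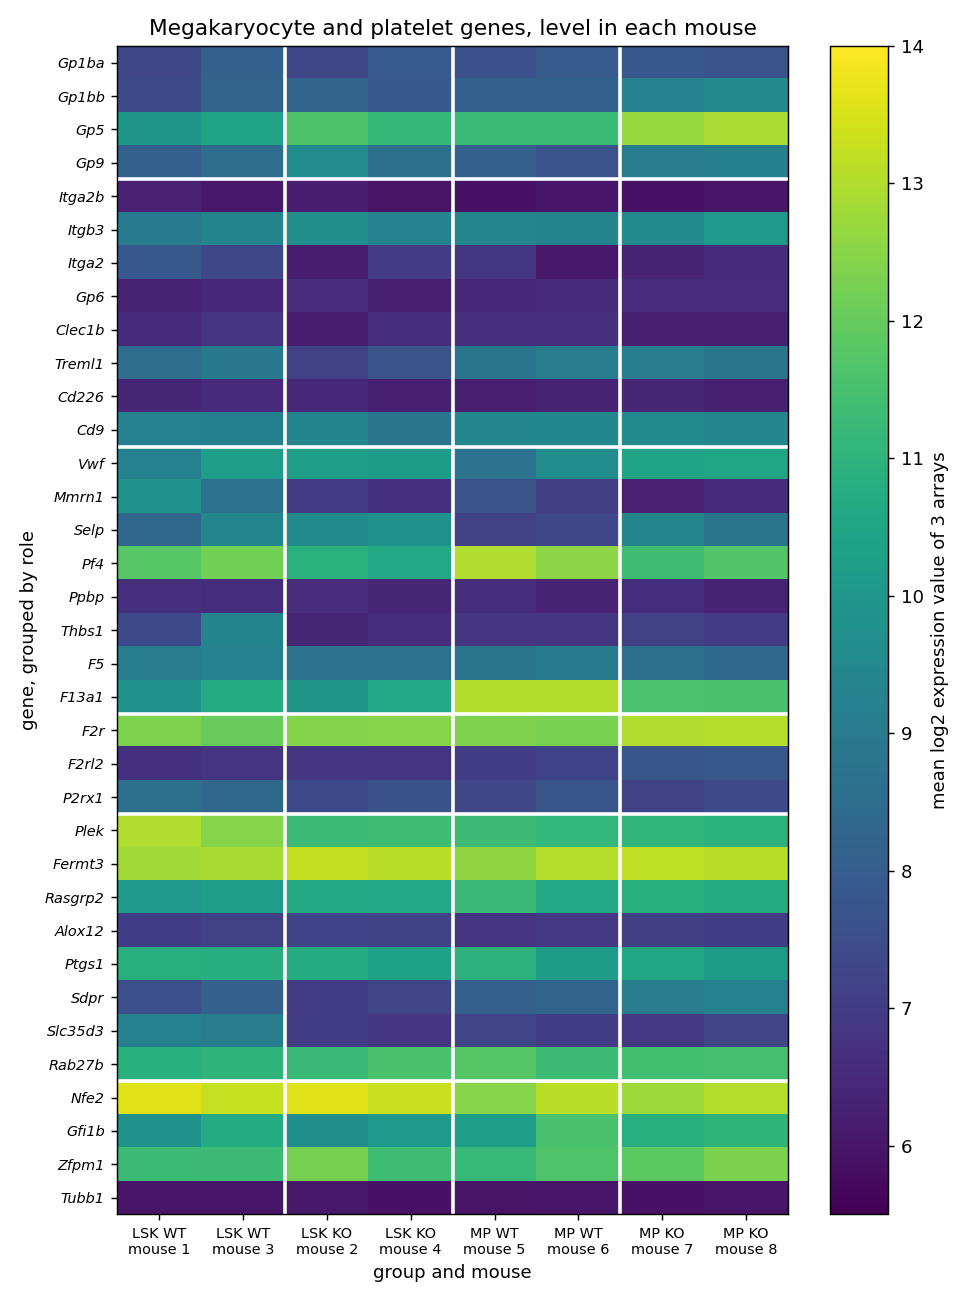
Mean log2 expression value of 3 arrays for each of the 35 members (rows, grouped by role) in each of the 8 mice (columns, 2 per group, MP for myeloid progenitors), as colour from 5.5 to 14. Nfe2, Fermt3 and F2r are bright in every mouse, Itga2b and Tubb1 dark in every mouse, and Slc35d3, Mmrn1 and Plek are brightest in the WT LSK mice.

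In KO LSK cells 6 members fell and 1 rose, and in KO myeloid progenitors 5 rose and 2 fell. Those that fell in LSK cells were Slc35d3, Mmrn1, Plek, Treml1, P2rx1 and Pf4, and Gp5 rose. Those that rose in myeloid progenitors were Selp, Gp5, Gp1bb, Sdpr and F2rl2, and Pf4 and F13a1 fell. Here and below a gene rose or fell where limma's two-sided p, adjusted by Benjamini-Hochberg over all 22439 probes, was under 0.05. The 6 that fell in LSK cells were 17.1% of the members, while 2.9% of all genes fell, and 2.86% of the members rose against 1.74% of all genes. In myeloid progenitors 14.3% of the members rose, against 0.908% of all genes, and 5.71% fell, against 1.74%. Of the 12 members called in a population, Gp5 and Pf4 were called in both, which is 28.6% of the 7 in each population. Over all genes 232 were called in both, 28.2% of the 824 in LSK cells and 49.5% of the 469 in myeloid progenitors.

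Over all 35 members the median change was -0.12 on the log2 scale in LSK cells and 0.05 in myeloid progenitors, against 0.02 and 0.00 over all genes. The sign of the LSK median was not stable: it was 0.03 among the 25 members above the 50th percentile of brightness and 0.01 without mouse 4. The changes ran from -2.43 to 1.16 in LSK cells and from -1.44 to 1.83 in myeloid progenitors. The direction was the same in both populations for 24 of 35 members (68.6%, against 60.1% of all genes), 13 higher and 11 lower. Of the rest, 8 were lower in KO LSK cells and higher in KO myeloid progenitors, and 3 lay the other way. Among the 12 members called in a population the order was reversed: 9 had the same direction in both (75.0%), against 92.0% of all genes called in a population. In bulk samples, fewer cells of a type and less RNA per cell cannot be told apart. No label says how the arrays of a mouse were replicated, and the p-values measure the spread between mice. Fits without 1 mouse leave a group with a single mouse, assumed to vary like the others. Without mouse 2 the count in LSK cells was 4, and without mice 1 and 5 it was 4, all lower. In myeloid progenitors it was 1 without mouse 5, 7 or 8 and 2 without mouse 6 or without mice 1 and 5.

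Several calls on single members rested on the settings of the fit. In the fit without mice 1 and 5, a member with no LSK call in the main fit gained one. The LSK count of that fit is therefore not made up of kept calls alone. Without mice 1 and 5 the LSK calls were lost for Treml1 (-1.53, limma adjusted p = 0.0548), Plek (-1.14, 0.065), P2rx1 (-0.82, 0.152) and Gp5 (0.92, 0.196). The myeloid progenitor calls were lost for F13a1 (-1.43, 0.0838), Gp1bb (1.24, 0.0945), Sdpr (0.90, 0.173), Pf4 (-0.99, 0.177) and F2rl2 (0.56, 0.247). Without trend and robust moderation the changes stay as they are, and the LSK calls were lost for Treml1 (adjusted p = 0.054), Gp5 (0.0575), P2rx1 (0.0654) and Pf4 (0.0661). Those lost in myeloid progenitors were Pf4 (0.0889), Sdpr (0.0957), Selp (0.0959), Gp1bb (0.109) and F13a1 (0.135). With only the groups compared, Gp5 (0.0613) and P2rx1 (0.0545) lost the LSK call and F2rl2 (0.0728) the myeloid progenitor call. Slc35d3 and Mmrn1 kept their LSK calls in each of these fits.

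**Figure D2:**
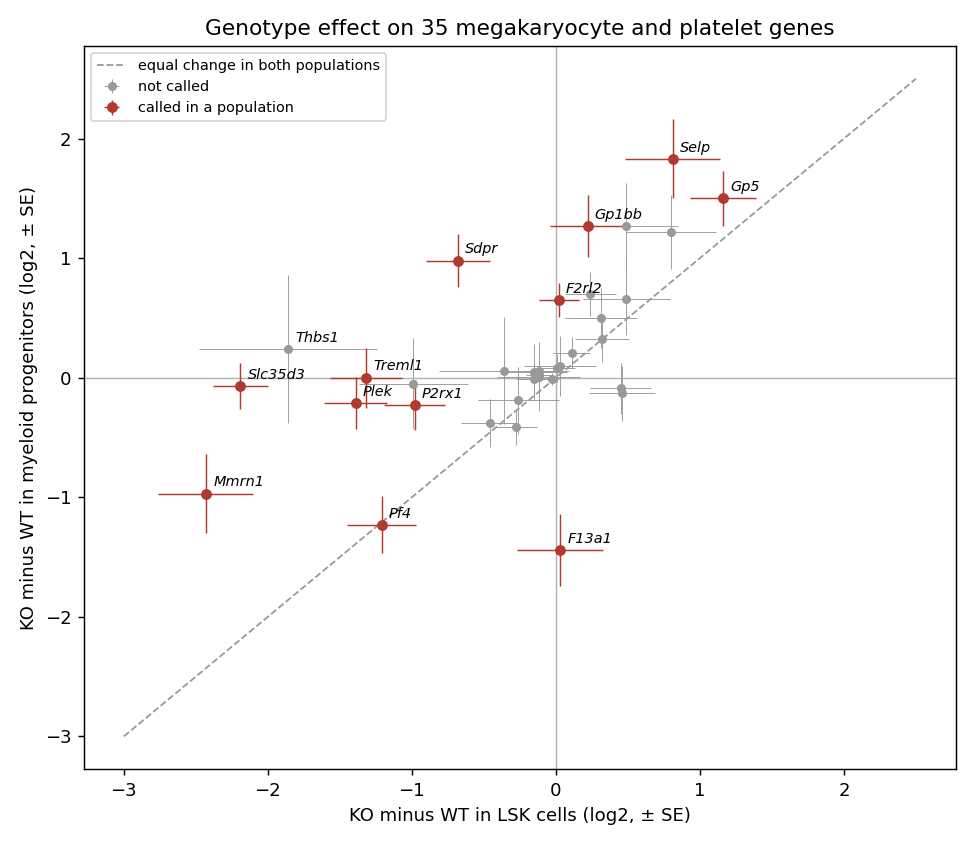
KO minus WT change on the log2 scale in LSK cells (x axis) and myeloid progenitors (y axis) for the 35 members, with SE bars, red where called in a population. Slc35d3, Treml1, Plek and P2rx1 lie to the left at a myeloid progenitor change of -0.23 to 0.00, Pf4 lies on the line of equal change at lower left, and Gp5 and Selp lie at upper right.

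The dense granule gene Slc35d3 showed the clearest change. SLC35D3 is a nucleotide sugar transporter family member needed to form platelet dense granules. It read 9.22 and 9.07 in the WT LSK mice and 7.06 and 6.85 in the KO LSK mice, and 7.27, 7.04, 6.92 and 7.27 in WT mice 5 and 6 and KO mice 7 and 8 of the myeloid progenitors. Both WT LSK mice stood above the other 6 mice, which read 6.85 to 7.27. In LSK cells it fell by 2.19 ± 0.19 (SE), a 4.56-fold decrease (limma adjusted p = 0.000224), while the change in myeloid progenitors was -0.07 ± 0.19 (adjusted p = 0.981). Among the other granule and signalling genes of this group, Plek, which encodes pleckstrin, the main substrate of protein kinase C in platelets, read 12.98 and 12.47 in WT and 11.29 and 11.37 in KO LSK mice. In myeloid progenitors it read 11.32 and 11.14 in WT against 11.11 and 10.94 in KO mice. The pattern was like that of Slc35d3: the WT LSK mice were high and the other groups lay close together. Plek fell by 1.39 ± 0.22 in LSK cells (2.62-fold, adjusted p = 0.00493), with -1.14 and adjusted p = 0.0506 without mouse 1. Its second, dimmer probe had a change of -0.79 ± 0.27 in LSK cells that did not pass (adjusted p = 0.149).

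Sdpr (now Cavin2), a caveola protein and protein kinase C substrate of platelets, rose in KO myeloid progenitors. It read 8.11 and 8.26 in WT and 9.08 and 9.25 in KO myeloid progenitors, a rise of 0.98 ± 0.22 (1.97-fold, adjusted p = 0.0437). In LSK cells the values were 7.56 and 8.10 in WT and 7.03 and 7.26 in KO mice, a change of -0.68 ± 0.22 that did not pass (adjusted p = 0.128). The groups did not overlap in either population, and the differences had opposite signs. Without mouse 5, 6, 7 or 8 the rise was 0.89 to 1.07 and did not pass (adjusted p up to 0.295). The other members of this group, the integrin-activating genes Fermt3 and Rasgrp2, the eicosanoid enzymes Alox12 and Ptgs1, and Rab27b, which docks granules, had changes of -0.26 to 0.46 in LSK cells and -0.19 to 0.32 in myeloid progenitors, none past the threshold.

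Among the granule and secreted proteins, Mmrn1 fell most. Multimerin 1 is the alpha granule carrier of coagulation factor V. It read 9.81 and 8.74 in WT and 6.97 and 6.73 in KO LSK mice, and 7.66 and 7.12 in WT against 6.29 and 6.55 in KO myeloid progenitors. In both populations every KO mouse lay below every WT mouse. It fell by 2.43 ± 0.33 in LSK cells (5.39-fold, adjusted p = 0.00607), and the change of -0.97 ± 0.33 in myeloid progenitors, where KO mice were near the low end of the arrays, did not pass (adjusted p = 0.279). Factor V itself, encoded by F5, read 9.08 and 9.26 in WT and 8.72 and 8.69 in KO LSK mice, with changes of -0.46 ± 0.20 and -0.38 ± 0.20 that did not pass in either population (adjusted p = 0.293 and 0.574).

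Pf4, the platelet chemokine of alpha granules, fell in both populations by a like amount. It read 11.79 and 12.19 in WT and 10.93 and 10.63 in KO LSK mice, and 12.99 and 12.51 in WT against 11.35 and 11.69 in KO myeloid progenitors. The KO mice lay below the WT mice of their population in each case. The decreases were 1.21 ± 0.24 (2.31-fold, adjusted p = 0.0184) and 1.23 ± 0.24 (2.35-fold, adjusted p = 0.023). Without mouse 3 or 4 the LSK change was -1.01 or -1.06 and did not pass (adjusted p of 0.115 and 0.0638). Without mouse 5, 7 or 8 the myeloid progenitor change was -1.40 to -0.99 (adjusted p up to 0.168).

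Selp moved up while Pf4, stored in the same granules, moved down. P-selectin is the granule membrane receptor that platelets and endothelial cells show on activation. It read 7.16 and 7.35 in WT and 9.38 and 8.79 in KO myeloid progenitors, a rise of 1.83 ± 0.33 (3.56-fold, adjusted p = 0.016). In LSK cells it read 8.37 and 9.39 in WT and 9.56 and 9.83 in KO mice, a change of 0.81 ± 0.33 (adjusted p = 0.243). Both KO myeloid progenitor mice reached the range of the LSK mice, whereas the WT ones lay below it. Without any 1 of mice 5, 6 and 7 the rise was 1.54 to 1.93 and missed the threshold (adjusted p 0.0961 to 0.127). Vwf, the adhesive ligand of GPIb, had the same direction without passing. It read 8.75 and 9.68 in WT and 10.47 and 10.51 in KO myeloid progenitors (1.27 ± 0.36, adjusted p = 0.139), and 9.22 and 10.23 against 10.26 and 10.19 in LSK cells, where mouse 1 stood apart from the other 3.

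F13a1, which encodes the fibrin-crosslinking subunit of factor XIII, fell in KO myeloid progenitors. It read 13.02 and 13.01 in WT and 11.60 and 11.55 in KO mice, a decrease of 1.44 ± 0.30 (2.71-fold, adjusted p = 0.033). Mice of a group lay close together there. In LSK cells they lay further apart, at 9.84 and 10.74 in WT and 10 and 10.64 in KO mice. The LSK change was 0.03 ± 0.30. Without any 1 of mice 5 to 8 the decrease was 1.42 to 1.46 and did not pass (adjusted p up to 0.207). Thbs1, encoding the matrix protein thrombospondin, read 7.40 and 9.34 in WT and 6.39 and 6.62 in KO LSK mice, and its change of -1.86 ± 0.62 did not pass (adjusted p = 0.238), since the WT mice differed from each other by more than mouse 1 differed from KO mice.

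Of the GPIb-IX-V complex, Gp5 rose in both populations and Gp1bb in myeloid progenitors. Gp5 encodes glycoprotein V, the thrombin-cleaved subunit. It read 10 and 10.46 in WT and 11.62 and 11.15 in KO LSK mice, and 11.30 and 11.31 in WT against 12.70 and 12.92 in KO myeloid progenitors. The KO mice lay above the WT mice in each population, and KO LSK mice were at the level of WT myeloid progenitors. The rises were 1.16 ± 0.23 (2.23-fold, adjusted p = 0.0194) and 1.5 ± 0.23 (2.84-fold, adjusted p = 0.00672). Without mouse 1 or 2 the LSK rise was 0.92 and did not pass (adjusted p of 0.165 and 0.102), nor did the myeloid progenitor rise without mouse 8 (1.39, adjusted p = 0.0828).

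Gp1bb encodes the beta chain, which carries the complex to the cell surface. It read 8.09 and 8.15 in WT and 9.28 and 9.49 in KO myeloid progenitors, a rise of 1.27 ± 0.26 (2.41-fold, adjusted p = 0.0291). A second probe of Gp1bb also rose there, by 0.69 ± 0.13 (adjusted p = 0.0203). In LSK cells the brighter probe read 7.46 and 8.22 in WT and 8.26 and 7.86 in KO mice, so that the groups overlapped. In fits that left out mouse 5, 6, 7 or 8 the rise was 1.17 to 1.38, with adjusted p from 0.0784 to 0.212. Gp9, the small subunit, read 8.11 and 7.69 in WT and 9.06 and 9.18 in KO myeloid progenitors (1.22 ± 0.31, adjusted p = 0.0803), and 8.12 and 8.53 against 9.60 and 8.64 in LSK cells (0.80 ± 0.31, adjusted p = 0.223). Gp1ba, the ligand-binding chain, had changes of -0.12 ± 0.29 and 0.01 ± 0.29. Over the 4 subunits the changes in myeloid progenitors were 0.01 to 1.5, of which 2 passed.

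Of the 8 integrins and other adhesion or activating receptors, Treml1 alone was called in LSK cells. TREML1 is a receptor stored in alpha granules and shown on activated platelets. It read 8.53 and 8.94 in WT and 7.14 and 7.68 in KO LSK mice, and 8.82 and 9.08 in WT against 9.10 and 8.80 in KO myeloid progenitors. The KO LSK mice lay below the other 6 mice. It fell by 1.32 ± 0.25 (2.5-fold, adjusted p = 0.0135), with -1.05 and -1.12 (adjusted p = 0.0815 and 0.0803) when mouse 2 or 3 was left out. The change in myeloid progenitors was 0.00 ± 0.25. Itga2, the collagen-binding integrin chain, read 7.85 and 7.30 in WT and 6.18 and 7.00 in KO LSK mice, a change of -0.99 ± 0.38 that did not pass (adjusted p = 0.292). The fibrinogen receptor chain Itgb3 and the tetraspanin Cd9 read 8.77 to 10.10 over all mice, with changes of -0.15 to 0.50. In myeloid progenitors limma called 0 of the 8, against 2.64% of all genes, and 1 had an unadjusted p under 0.05. At that share a list of 8 can easily hold 0 calls. The fit without trend and robust moderation called 0 of the 8 there as well.

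Of the thrombin and nucleotide receptors 3 of 4 had a probe. P2rx1, the ATP-gated channel of platelets, read 8.65 and 8.33 in WT and 7.40 and 7.61 in KO LSK mice, and 7.31, 7.72, 7.16 and 7.42 in myeloid progenitors. The WT LSK mice were again above the other 6. It fell by 0.98 ± 0.21 in LSK cells (1.98-fold, adjusted p = 0.0229), with -0.82 and -0.88 without mouse 1 or 2 (adjusted p up to 0.148). F2rl2, a thrombin receptor that serves as cofactor on mouse platelets, read 7.04 and 7.22 in WT and 7.76 and 7.81 in KO myeloid progenitors, a rise of 0.65 ± 0.14 (1.57-fold, adjusted p = 0.033). The 4 LSK mice read 6.74 to 6.83 without regard to genotype. In fits lacking mouse 5, 6, 7 or 8 it was 0.56 to 0.74, with adjusted p from 0.0731 to 0.21. F2r had changes of 0.24 ± 0.18 and 0.70 ± 0.18 that did not pass (adjusted p = 0.609 and 0.0867).

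The transcription factors and the tubulin did not pass in either population. Nfe2 had changes of 0.03 ± 0.25 and 0.10 ± 0.25, the repressor gene Gfi1b -0.36 ± 0.45 and 0.06 ± 0.45, and the GATA1 cofactor gene Zfpm1 0.49 ± 0.30 and 0.66 ± 0.30. Limma called 0 of these 4 genes in each population, and 0 had an unadjusted p under 0.05. Of all genes 4.64% were called in LSK cells and 2.64% in myeloid progenitors. At those shares a list of 4 can easily hold 0 calls, so the count does not set these genes apart. The fit without trend and robust moderation also called 0. Gfi1b varied between WT mice by more than between genotypes, at 9.82 and 10.72 in LSK cells and 10.22 and 11.57 in myeloid progenitors.

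**Figure D3:**
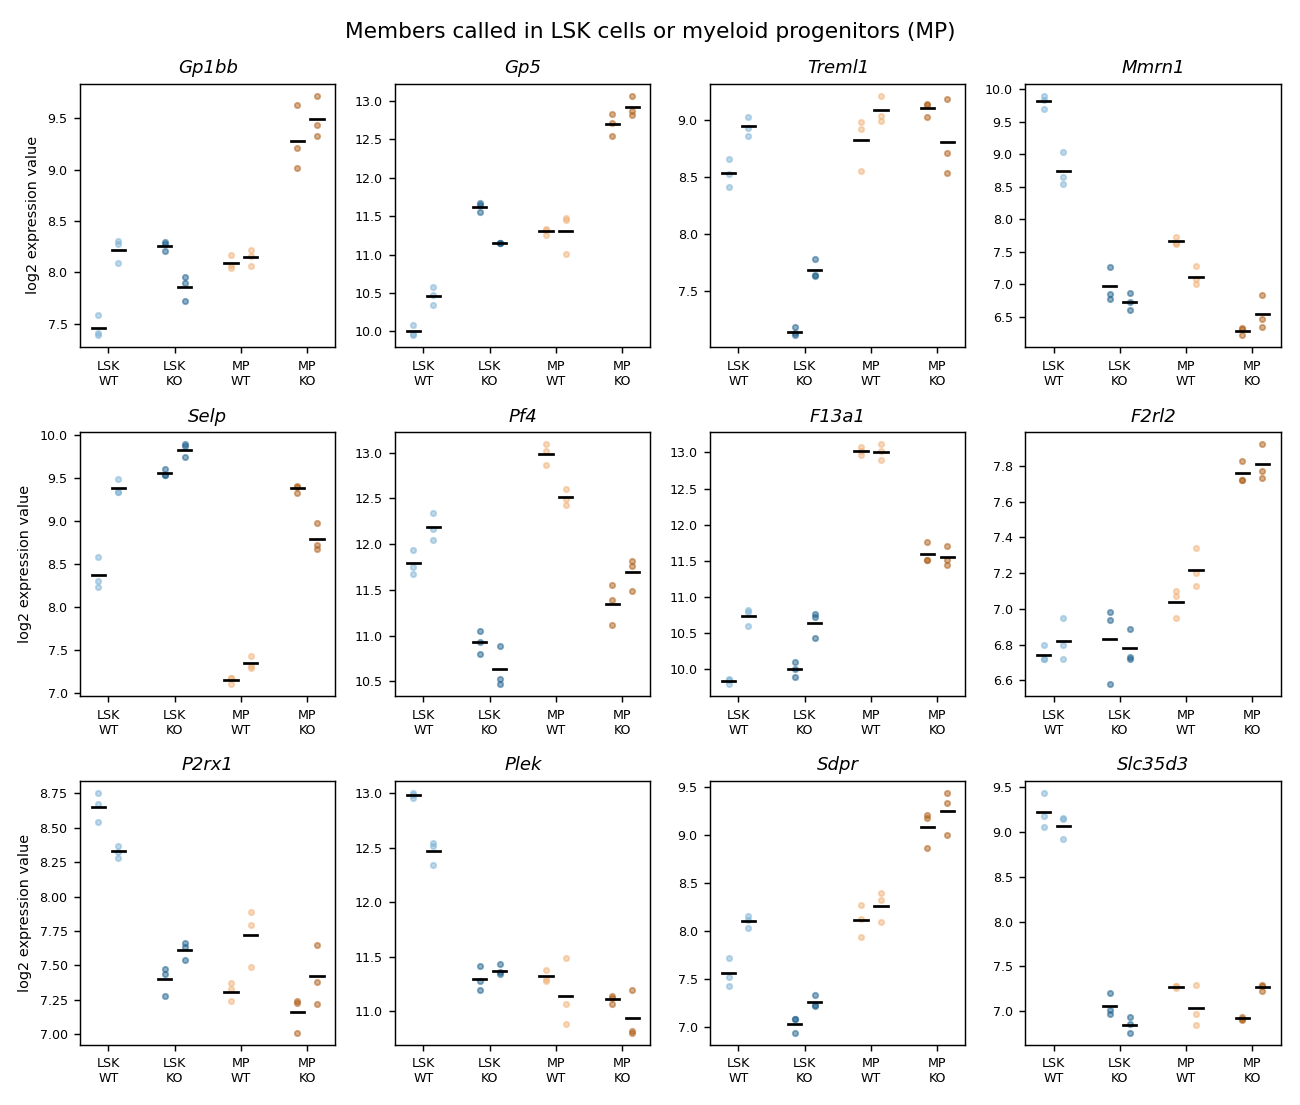
Log2 expression values of the 12 members called in a population, with a point for each array and a bar for the mean of each mouse (2 mice per group, MP for myeloid progenitors). Slc35d3, Plek and P2rx1 are high in both WT LSK mice and lower in the other 6, Pf4 is lower in KO mice of both populations, and Gp5 is higher.

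The genotype effect of Slc35d3 differed between the populations. The difference, LSK effect minus myeloid progenitor effect, was -2.12 ± 0.26 (limma adjusted p = 0.0194), and Slc35d3 was 1 of 11 genes called in this test on the whole array (0.062% of all genes). It did not pass without mouse 6 or 8 (-2.0 and -1.95, adjusted p = 0.0737 and 0.0504), nor without trend and robust moderation (adjusted p = 0.142), a fit that called 0 genes. For the other called members the difference did not pass. It was -1.66 ± 0.31 for Sdpr (adjusted p = 0.108), -1.46 ± 0.47 for Mmrn1 (0.6), -1.32 ± 0.35 for Treml1 (0.326), -1.18 ± 0.31 for Plek (0.314) and 1.47 ± 0.43 for F13a1 (0.417). That Treml1, Plek and P2rx1 passed in LSK cells alone, or Selp and Gp1bb in myeloid progenitors alone, is thus not shown to be a difference between the populations.

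In 30 of the 35 members (85.7%) the genotype effect was lower in LSK cells than in myeloid progenitors, against 46.6% of all genes, as a description without a test. The median difference was -0.19, against 0.01 over all genes. The difference was under -0.5 in 12 of the 35 members, against 6.27% of all genes, and over 0.5 in 3 of the 35, against 5.88%. Both shares of the members were above those of all genes. The count was 22 of 35 (62.9%) without mouse 4, 25 without mouse 3 or 5, and 26 without mice 1 and 5, where all genes gave 46.2% to 47.4%. The higher ones were F13a1, Rasgrp2, Rab27b, Clec1b and Pf4.

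**Figure D4:**
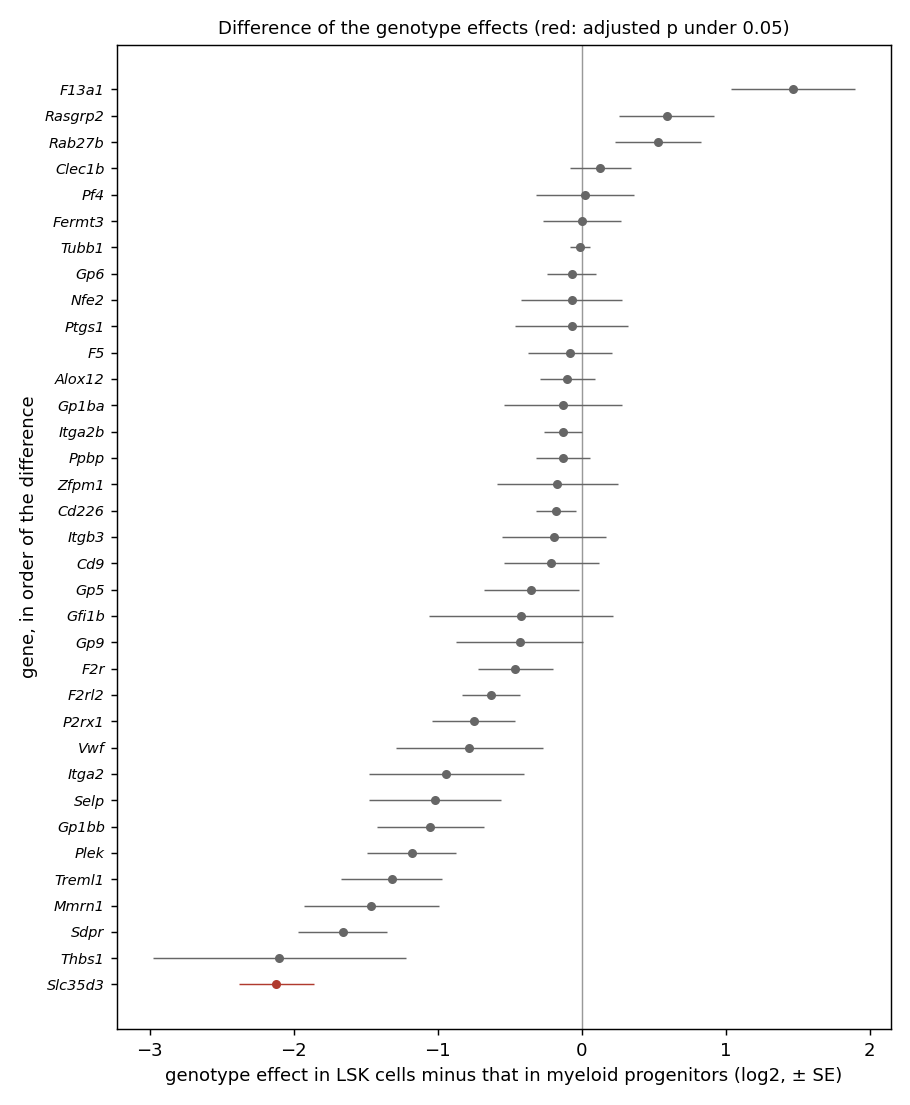
Genotype effect in LSK cells minus that in myeloid progenitors on the log2 scale, with SE bars, for the 35 members in order of the difference. Slc35d3 (red, adjusted p under 0.05) is lowest at -2.12, F13a1 is highest at 1.47, and 30 of 35 lie below 0.

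Between populations of one genotype, 7 members differed in WT and 6 in KO mice. In WT mice Slc35d3 (1.99 ± 0.19), Mmrn1 (1.89 ± 0.33), Selp (1.63 ± 0.33), Plek (1.49 ± 0.22) and P2rx1 (0.97 ± 0.21) were higher in LSK cells than in myeloid progenitors (14.3% of members, against 8.08% of all genes). Gp5 (-1.07 ± 0.23) and F13a1 (-2.72 ± 0.30) were lower (5.71%, against 5.46%). In KO mice the 6 called were all lower in LSK cells: Sdpr (-2.02 ± 0.22), Treml1 (-1.54 ± 0.25), Gp5 (-1.42 ± 0.23), Gp1bb (-1.33 ± 0.26), F13a1 (-1.25 ± 0.30) and F2rl2 (-0.98 ± 0.14), which is 17.1% of members against 5.49% of all genes. Higher calls in KO LSK cells made up 0.00% of the members and 7.26% of all genes, and 9 members had an unadjusted p under 0.05 in either direction. The fit without trend and robust moderation gave the same counts. The 5 genes that were higher in WT LSK cells had KO differences of -0.13 to 0.61 that did not pass. These comparisons share their mice with the genotype comparisons and so are not independent of them. Without mouse 5 the count in WT mice was 4.

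Other genes of platelet biology were taken from 4 lists of 95 genes, of which 81 had a probe. In LSK cells 3 rose and 6 fell (3.70% and 7.41%, against 1.74% and 2.9% of all genes). In myeloid progenitors 3 rose and 2 fell (3.70% and 2.47%, against 0.908% and 1.74%). The medians were 0.04 and 0.10. In the platelet receptor signalling list 5 of 28 fell in LSK cells (17.9%, against 2.9%). The junction adhesion gene Jam3 read 9.37 and 8.97 in WT and 7.48 and 7.33 in KO LSK mice and fell by 1.77 ± 0.22 (adjusted p = 0.0015), against a change of 0.20 ± 0.22 in myeloid progenitors, and the difference did not pass (adjusted p = 0.0621). The protein kinase C genes Prkca and Prkcq fell by 1.03 ± 0.17 and 0.80 ± 0.16, and Lcp2, the SLP-76 adaptor downstream of glycoprotein VI, by 0.96 ± 0.17. Jam3 and Prkca kept their calls in every fit without 1 mouse, but Prkca lost its call without mice 1 and 5 (-1.0, adjusted p = 0.0718). Prkcq lost it without mouse 1, 2, 3 or 4 (-0.83 to -0.76) and Lcp2 without mouse 1 or 2 (-0.92 and -0.88). In myeloid progenitors 1 gene of this list rose (3.57%, against 0.908% of all genes) and 0 fell, with 20 positive and 8 negative changes. The gene that rose was the thrombin receptor gene F2rl3 (1.02 ± 0.22, limma adjusted p = 0.0324). Its call was lost without mouse 5, 6, 7 or 8 (0.81 to 1.23).

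In the list of granule formation and secretion 3 of 23 rose in LSK cells (13%, against 1.74% of all genes), and 2 rose and 1 fell in myeloid progenitors (8.70% and 4.35%, against 0.908% and 1.74%). The chaperone gene Clu rose by 1.26 ± 0.25 in LSK cells and 1.70 ± 0.25 in myeloid progenitors, and the growth factor gene Pdgfa by 0.92 ± 0.22 and 1.35 ± 0.22. Pdgfb rose by 0.92 ± 0.21 in LSK cells, and the granule fusion gene Stx11 fell by 1.0 ± 0.20 in myeloid progenitors. In fits without 1 mouse these ranged from 0.61 to 1.11 for Pdgfa and Pdgfb in LSK cells, where each lost its call in most fits, and Stx11 lost it without mouse 5, 6, 7 or 8 (-1.0 in each). Clu lost it in LSK cells without mouse 1 or 2 (0.99 and 1.04) and in myeloid progenitors without mouse 6 (1.54), and Pdgfa in myeloid progenitors without mouse 5, 6 or 8 (1.31 to 1.38). Of 17 transcription factor and thrombopoietin signalling genes, Mef2c fell in both populations (0.92 ± 0.20 and 1.03 ± 0.20). It lost the LSK call without mouse 1, 2, 3 or 4 (-0.96 to -0.88), the other without mouse 5, 6, 7 or 8 (-1.16 to -0.89), and both with the mean of its probes (-0.64 and -0.60). Of 13 cytoskeleton genes limma called 0 in each population, against 4.64% of all genes in LSK cells and 2.64% in myeloid progenitors. A list of 13 can easily hold 0 calls at those shares. An unadjusted p under 0.05 was seen for 2 in LSK cells and 4 in myeloid progenitors.

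Markers of other cell types moved beside some of these results. The endothelial list (12 of 12 measured) had a mean level of 9.39 to 9.54 in WT and 9.22 to 9.50 in KO LSK mice, and 8.51 to 8.53 against 8.41 to 8.52 in myeloid progenitors. In LSK cells its members Emcn and Tek fell, by 3.01 ± 0.26 and 1.73 ± 0.19, while Cldn5 rose by 3.6 ± 0.24. In myeloid progenitors Emcn fell by 1.45 ± 0.26, with -1.45 to -1.05 and no call without mouse 5, 7 or 8. Their part in the changes of Mmrn1, Selp and Vwf was not tested. The monocyte and macrophage list (8 of 10) had a mean of 9.25 to 9.43 in WT and 8.83 to 9.01 in KO myeloid progenitors, where Mpeg1 and Adgre1 fell by 1.26 ± 0.23 and 0.94 ± 0.20. Mpeg1 lost its call without mouse 5, 6 or 8 (-1.33 to -0.99) and with the mean of its probes (-0.65), and Adgre1 without mouse 5 or 8 (-0.75 and -0.76). Cd68 of the same list lay the other way there (0.76 ± 0.27, adjusted p = 0.25). In LSK cells the list's mean was 8.53 and 8.76 in WT and 8.57 and 8.51 in KO mice. There Cd68 rose by 2.26 ± 0.27 and Mpeg1 fell by 1.18 ± 0.23. Mpeg1 lost this LSK call without mouse 2 or 3 (-1.17 and -1.04) and with the mean of its probes (-0.61). The part of these markers in the decrease of F13a1 was not tested. The granulocyte and monocyte progenitor list had a mean of 10.71 to 11.33 in WT and 11.29 to 11.62 in KO LSK mice. Of its 11 measured genes 7 had a positive change in LSK cells and 4 a negative one. The lowest was Irf8 (-0.89 ± 0.24, limma adjusted p = 0.0698). Elane, Ctsg and Cebpe rose by 1.91 ± 0.39, 1.21 ± 0.29 and 0.91 ± 0.21. Without mouse 1 none of these 3 was called (1.45, 0.73 and 0.77), and each also lost its call without some other single mice. The erythroid list (11 of 14) had a mean of 9.40 to 10.03 against 9.43 to 10.14 in LSK cells and 10.78 to 11.20 against 10.60 to 11.14 in myeloid progenitors. Its changes were positive for 7 genes and negative for 4 in LSK cells, with a median of 0.41. In myeloid progenitors 4 were positive and 7 negative, with a median of -0.14. Against most of the list, Car2 fell in LSK cells by 1.18 ± 0.24, with no call without mouse 1, 2 or 3 (-1.29 to -0.78). Rhag, also against most of the list, rose in myeloid progenitors by 1.10 ± 0.18, with no call without mouse 5 or 8 (0.97 and 0.93). The basophil and mast cell list (10 of 10) had a mean of 8.94 and 8.95 in WT and 9.04 and 9.06 in KO LSK mice, and 10.03 and 10.12 against 9.92 and 9.74 in myeloid progenitors. Its genes went both ways: Mcpt8 rose by 2.42 ± 0.18 in LSK cells and 1.46 ± 0.18 in myeloid progenitors, Prss34 fell by 2.79 ± 0.19 and 1.73 ± 0.19, and Gzmb fell by 1.87 ± 0.21 in myeloid progenitors. Of the 14 measured stem cell genes 5 had a positive change in LSK cells and 9 a negative one, with a median of -0.25. Limma called 0 of them in LSK cells, against 4.64% of all genes. The list's mean was 10.95 and 10.62 in WT and 10.73 and 10.42 in KO LSK mice. In myeloid progenitors 8 of these genes had a positive change and 6 a negative one, with a median of 0.18. Cd34 alone was called there and fell by 1.18 ± 0.18, with no call without mouse 8 (-1.09). Mecom (1.01 ± 0.26, limma adjusted p = 0.0794) and Fgd5 (0.96 ± 0.24, 0.0666) lay the other way without passing. The B and T lymphoid list (9 of 10) had a mean of 8.15 in both WT LSK mice against 6.94 and 6.74 in KO ones, and 7.78 and 7.9 against 6.84 and 6.87 in myeloid progenitors. In each population 4 of its genes fell, Ebf1, Vpreb1, Rag1 and Il7r, the last with no call in myeloid progenitors without mouse 8 (-1.55). The part of these 5 lists in the members' changes was not tested. Slamf1, Sox17, Fcgr1 and Pax5 lay under 6.5 in every mouse. The mean over the 35 members was 9.01 and 9.22 in WT and 8.88 and 8.83 in KO LSK mice, and 8.95 and 8.99 against 9.13 and 9.17 in myeloid progenitors.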

How the data were processed

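The 24 one-colour Cy5 arrays measured RNA of sorted bone marrow cells. The authors deposited log2 expression values. Of tools, the submitters' processing notes list only limma. Once sorted, any pair of arrays agreed to within 0.0451 at every rank, which a quantile normalization would give. No source used here describes scanning, background correction or filters on spots. The number of arrays and mice limits the precision.

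Probe names came from the platform annotation, updated through RefSeq symbols of GRCm38.p6: of 22439 probes 18213 matched a current symbol, 2126 a synonym, 36 kept the array's name and 2064 had no symbol. Members were matched by the array's symbols. Arrays of a mouse correlated with a median r of 0.994, mice of a group with 0.987. Mouse means of all 4 groups entered 1 linear model (R 4.3.3, limma 3.58.1, moderated with trend and robust), with 4 residual degrees of freedom, and p-values were adjusted over all probes. In simulated data for the LSK contrast, with 200 of 22439 probes changed, the fit recovered 71.4% of changes of 1 and 97.6% of changes of 2 on the log2 scale, and 8.5% of its calls were false. For the difference of the effects it recovered 48.9% and 93.8%, with 9.16% false.

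Every member with a probe is described, in full where called. From each pathway list up to 4 called genes with the lowest adjusted p are named, and F2rl3 besides. The members and lists were chosen with earlier results of these data known. Alternatives were array-level fits, plain moderation, the compared groups alone, filters on dim probes, the mean of a gene's probes, a looser threshold and leaving out mice.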

Additional observations from a re-analysis of the deposited data

Results flagged for a closer look

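Slc35d3 stood out because its genotype effect differed between the populations in a test of the difference, by -2.12 on the log2 scale.

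Single arrays stood apart from the other 5 arrays of their group in 8 of 140 combinations of member and group, and chance flags about 1 in 20. The values were 8.16 for Gp1ba, 7.22 for Alox12 and 11.45 for Gfi1b in KO myeloid progenitors, 7.0 for Thbs1 in WT myeloid progenitors, 6.61 for Itga2b and 6.95 for F2rl2 in WT LSK cells, and 7.33 for Alox12 and 10.83 for Rab27b in KO LSK cells. The 6 arrays of a group come from 2 mice and are not independent.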

How the results depend on the processing

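Of 15 calls on members, 2 (Slc35d3 and Mmrn1 in LSK cells) held under every alternative run and the sign reversed in 0. Of 56 member results without a call, 12 gained one under some alternative.

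Counts of members called were 7 in LSK cells, 7 in myeloid progenitors, 1 for the difference, 7 between WT and 6 between KO populations. With all arrays and the mouse as a random block they were 13, 13, 8, 15 and 12, and with the array number as a replicate block too 13, 12, 9, 15 and 12. The array number only counts arrays within a mouse and pairs nothing. Without trend and robust moderation they were 3, 2 and 0 for the genotype effects and their difference, and without mice 1 and 5 they were 4, 2 and 2. For the difference, probes above the 50th percentile gave 2. Leaving out 1 mouse gave 4 to 7 in LSK cells, 1 to 8 in myeloid progenitors, 0 to 3 for the difference and 4 to 7 between WT populations. Over all genes it gave 430 to 968 (824 with all mice) and 196 to 546 (469) for the genotype effects and 10 to 117 (11) for their difference, and 1077 to 2749 (2403) and 936 to 2687 (2262) between the populations. The all-array fit gave 2671, 1629, 454, 4675 and 4628, and the one with the replicate block 2570, 1549, 402, 4543 and 4514, in the same order. Plain moderation gave 549, 288 and 0 for the genotype effects and their difference, the compared groups alone 479 in LSK cells, and without mice 1 and 5 the counts were 331, 243, 49 and 617 between WT populations. For the difference, probes above the 50th percentile gave 31, and a threshold of 0.10 gave 1275 in LSK cells and 26 for the difference. Without mouse 4 more genes rose (502) than fell in LSK cells, and so did they without mouse 7 in myeloid progenitors (194 against 130).

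The median change of the members in LSK cells was 0.03 among the 25 above the 50th percentile, and -0.14 to 0.01 without 1 mouse. The count of members with a lower effect in LSK cells was 22 to 31 without 1 mouse (30 with all), and its alternatives were chosen after seeing the data. The causes were not tested.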
